A study of Mus musculus with 8 samples.

Results

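The genes described here are 10 members of the transforming growth factor beta (TGF-β) system, out of 46517 genes counted in single cells of the mouse liver. They are the ligand genes *Tgfb1*, *Tgfb2* and *Tgfb3*, the receptor genes *Tgfbr1*, *Tgfbr2* and *Tgfbr3*, and the genes of the latent TGF-β binding proteins (LTBPs), *Ltbp1* to *Ltbp4*. They were taken by gene name with no threshold on a measured value, and all 10 were found in the count table. The cells came from adult *C57BL6/J* mice of both sexes, some of which carried heterozygous reporter transgenes (*Pdgfrb*-GFP, *Pdgfra*-H2bGFP, *Acta2*-GFP, *Cspg4*-dsRED or *Cldn5*-GFP), and no group was treated. Endothelial cells were sorted by CD31, VE-cadherin or *Cldn5*-GFP, cholangiocytes by EPCAM, macrophages by CD68, mesenchymal cells by the reporters or PDGFRα, and hepatocytes without a marker, so each class holds what its gate admitted. The 8 samples are the male and the female pool of 4 classes, namely mesenchymal cells (998 male and 339 female cells), endothelial cells (655 and 451), immune cells (255 and 396) and epithelial cells (358 and 39). The pools are the replicates, 2 per class, and no label says which or how many mice a pool holds, so p values measure the spread between these pools only. Male and female pools never shared a plate, and the female mesenchymal cells filled 1 plate only, so sex, mice and plates cannot be told apart. The pools of a class also hold different clusters. The immune cluster i1, for example, had 108 male and 9 female cells and i7 had 1 and 163, the endothelial e3 had 230 and 6, the mesenchymal m8 and m10 were all male, and all but 2 of the hepatocytes were male.

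TGF-β is secreted as a latent complex, in which the ligand is held by its own propeptide. The propeptide is usually bound to an LTBP, which anchors the complex to fibrillin microfibrils in the matrix until integrins, proteases or mechanical force release the ligand. Active ligand brings together a type II receptor (TGFBR2) and a type I receptor (TGFBR1), which phosphorylate SMAD2 and SMAD3. Betaglycan (TGFBR3) is a co-receptor that presents ligand and is needed most for TGF-β2, and LTBP2 is the LTBP known not to bind the latent complex. In the liver the pathway is known for its part in the activation of hepatic stellate cells (HSC) and in fibrosis.

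The members lie on 8 mouse chromosomes (GRCm38, GENCODE gene models). *Tgfb1* (chr7:25687002-25705077, plus strand) and *Ltbp4* (chr7:27305136-27337692, minus strand) share chromosome 7, and *Tgfb3* (chr12:86056745-86079041) and *Ltbp2* (chr12:84783212-84876532) share chromosome 12, both on the minus strand. *Tgfb2* lies at chr1:186622792-186705989 and *Tgfbr2* at chr9:116084293-116175360, both on the minus strand. *Tgfbr1* (chr4:47353222-47414931, plus), *Tgfbr3* (chr5:107106570-107289629, minus), *Ltbp1* (chr17:75005568-75392512, plus) and *Ltbp3* (chr19:5740904-5758532, plus) have their chromosomes to themselves. Counts were made over exons. Exons of *Ltbp2* overlap those of the antisense gene *D030025P21Rik* over 764 bases, and those of *Tgfb3* overlap *Gm48008* and *Gm37804* over 257 and 163 bases. Whether strand was used in counting is not given in the sources used here, so reads in these stretches cannot be assigned to either gene with certainty.

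RefSeq promoter sequences (GRCm38.p6) were at hand for 8 of the 10 members. The 250 bases before the start are shown for *Tgfb1*, the ligand gene called higher in immune cells, for *Tgfb2*, the one called higher in the central vein cluster, and for *Ltbp2*, which had the largest fold difference of mesenchymal cells. Capitals mark GC boxes (GGCGGG, read on either strand) in *Tgfb1*, chr7:25686752-25687001 on the plus strand. They mark a TATA box (TATAAA) in *Tgfb2*, chr1:186705990-186706239 on the minus strand, and a CAGA box (AGNCAGAC, the element SMAD3 is known to bind) in *Ltbp2*, chr12:84876492-84876741 on the minus strand.
Tgfb1: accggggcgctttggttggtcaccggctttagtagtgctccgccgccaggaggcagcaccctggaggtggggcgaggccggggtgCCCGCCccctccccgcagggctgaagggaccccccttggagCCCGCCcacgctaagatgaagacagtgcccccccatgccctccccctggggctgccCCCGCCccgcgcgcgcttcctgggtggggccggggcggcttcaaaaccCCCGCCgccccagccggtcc
Tgfb2: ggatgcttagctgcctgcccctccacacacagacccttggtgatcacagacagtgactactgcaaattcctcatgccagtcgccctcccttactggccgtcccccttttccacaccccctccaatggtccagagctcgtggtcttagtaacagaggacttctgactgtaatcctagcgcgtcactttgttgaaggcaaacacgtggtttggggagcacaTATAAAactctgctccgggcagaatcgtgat
Ltbp2: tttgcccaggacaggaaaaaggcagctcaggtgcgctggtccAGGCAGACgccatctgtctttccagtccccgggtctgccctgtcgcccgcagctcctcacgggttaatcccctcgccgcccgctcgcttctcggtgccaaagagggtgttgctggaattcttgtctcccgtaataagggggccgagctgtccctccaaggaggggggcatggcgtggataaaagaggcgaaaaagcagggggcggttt
The *Tgfb1* window was 75.2% G and C, higher than 96.1% of all RefSeq promoters, with 4 GC boxes and no TATAAA. The *Tgfb2* window was 53.6% G and C, close to the median of 52.4%, with 1 TATAAA and no GC box. Of 32851 promoters of this length, 32.5% held a GC box, 12.4% TATAAA and 4.68% a CAGA box. These letters describe the windows only.

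Between 47063 and 1128421 reads were counted per cell (median 228708), and pool medians ranged from 88932 counts in female epithelial cells to 321121 in female mesenchymal cells. Levels are given as counts per 1000000 (CPM), the counts of a gene summed over the cells of a pool relative to all counts in those cells. In such a sum fewer cells with a transcript and less transcript per cell cannot be told apart, so shares of cells are given beside some levels. The classes carried their own markers, with 11834 CPM for 5 mesenchymal markers in mesenchymal cells against 25.5 to 139.4 CPM in the other classes. The 6 endothelial markers stood at 8740 CPM in endothelial and 59.5 to 494 CPM in other cells, and the 6 Kupffer cell markers at 16718 CPM in immune and 45.9 to 270.2 CPM in other cells. Among the immune cells, 26 that the authors annotated Cont carried endothelial markers at 3270 CPM and mesenchymal markers at 1757 CPM. Hepatocyte markers reached 4490 CPM in cholangiocytes against 15208 CPM in hepatocytes. The part of such stray transcripts in the levels below was not tested.

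Across the 4 classes, 7 of the 10 members were higher in mesenchymal cells than in the mean of the other classes, including 2 ligand genes, 1 receptor gene and every LTBP gene. Endothelial cells were higher for *Tgfbr2*, *Tgfbr3* and *Ltbp4*. Immune cells were higher for *Tgfb1* and lower for 6 other members, and epithelial cells were higher for *Tgfb2* and *Ltbp3* and lower for 5. A gene was called where edgeR's p, adjusted over all 24046 genes tested, was below 0.05 and its log2 fold change was 1 or more in size. By the same rule, 11.8% of all genes were called for mesenchymal cells (9.47% higher), 8.28% for endothelial cells (5.33% higher), 13.2% for immune cells (7.92% higher and 5.25% lower) and 12.4% for epithelial cells (8.37% higher and 4.05% lower). The median log2 fold change of the members was 3.29 in the mesenchymal comparison, 1.17 in the endothelial, -3.05 in the immune and -2.32 in the epithelial comparison, against 0.018, 0.037, 0.091 and -0.268 over all genes. The 4 comparisons use the same 8 pools.

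**Figure D1:**
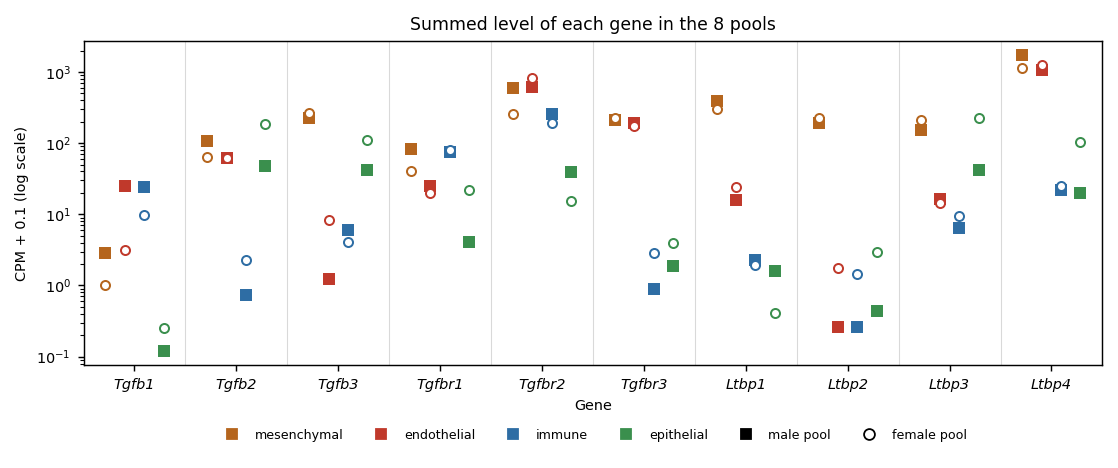
Level of each member (CPM + 0.1, log scale) in the 8 pools, with color for the class, filled squares for male and open circles for female pools. Both mesenchymal pools lie above all other pools for *Ltbp1*, *Ltbp2* and *Tgfb3*, whereas *Tgfb1* is highest in the male endothelial and male immune pools.

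*Tgfb1* encodes the ligand most often studied in fibrosis and immunity. Its level in the male and female pool was 24.5 and 3.04 CPM in endothelial cells, 24.3 and 9.56 in immune cells, 2.80 and 0.905 in mesenchymal cells, and 0.0217 and 0.156 in epithelial cells. The endothelial and immune pools lay above all mesenchymal and epithelial pools, and within each of these 2 classes the male pool was higher. The immune difference passed the test (log2 fold change 4.08 ± 0.96 SE, edgeR adjusted p = 0.027), the endothelial one did not (3.47 ± 0.96, adjusted p = 0.066), and epithelial cells were lower (-7.38 ± 1.71, adjusted p = 0.027). The immune call held in 4 of 8 fits that left out 1 pool. It was lost without the female mesenchymal, female endothelial, male immune or male epithelial pool, and the epithelial call without either epithelial pool. Over the 8 fits the log2 fold change was 3.24 to 4.77 for immune and -8.32 to -5.77 for epithelial cells. At least 1 count of *Tgfb1* was found in 30.7% of endothelial cells (95% interval 27.9 to 33.5%), 27.3% of immune cells (24 to 30.9%), 5.83% of mesenchymal cells (4.64 to 7.23%) and 3 of 397 epithelial cells. By pool, a count was found in 43.4% of the male and 12.2% of the female endothelial cells, both outside the pooled interval. Intervals are exact binomial over the cells of both pools. They cover counting error only, not the spread between pools or plates. Reads carried no molecular identifiers.

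*Tgfb2* encodes the ligand that depends most on betaglycan. It stood at 108 and 63.8 CPM in the male and female mesenchymal pools, 62.4 and 61.7 in endothelial cells, 48.3 and 183 in epithelial cells, and 0.632 and 2.16 in immune cells. Only the immune pools were set apart from all others, and the female epithelial pool was the highest of the 8. Immune cells were lower by the test (log2 fold change -5.80 ± 0.89, edgeR adjusted p = 0.0046), in all 8 fits that left out 1 pool. Mesenchymal (2.08 ± 0.56, adjusted p = 0.049) and epithelial cells (2.43 ± 0.56, adjusted p = 0.026) were called higher. The mesenchymal call held in 2 and the epithelial call in 4 of the 8 fits that left out a pool. Without the female epithelial pool, the epithelial log2 fold change was 1.34 (adjusted p = 0.29).

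*Tgfb3* encodes the third ligand, best known from palate and lung development. Its level was 223 and 264 CPM in the male and female mesenchymal pools, 41.8 and 111 in epithelial cells, 6.01 and 3.98 in immune cells, and 1.13 and 8.13 in endothelial cells. Both mesenchymal pools were above both epithelial pools, which were above all immune and endothelial pools. Mesenchymal cells were higher by a log2 fold change of 4.38 ± 0.63 (edgeR adjusted p = 0.0034), in all 8 fits that left out 1 pool, and immune cells were lower by the test (-3.03 ± 0.83, adjusted p = 0.049), in 2 of the 8. The endothelial value of -3.34 ± 0.85 missed the threshold (adjusted p = 0.050, before rounding above 0.05). A count was present in 64.7% of mesenchymal cells (62.1 to 67.3%) and 4.34% of endothelial cells (3.22 to 5.71%). By pool, the mesenchymal share was 54.6% in male and 94.4% in female cells, both outside the pooled interval.

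Of the receptor genes, *Tgfbr1*, which encodes the type I receptor, was counted at 82.8 and 41.0 CPM in the male and female mesenchymal pools, 76.2 and 78.9 in immune cells, 25.0 and 19.5 in endothelial cells, and 4.01 and 22.2 in epithelial cells. The mesenchymal and immune pools lay above all endothelial and epithelial pools, and no class passed the test. The values nearest to the threshold were those of immune cells (log2 fold change 1.69 ± 0.57, edgeR adjusted p = 0.096) and epithelial cells (-2.02 ± 0.71, adjusted p = 0.11).

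*Tgfbr2*, which encodes the type II receptor that binds ligand first, was counted in 80.6% of all cells. Its level was 624 and 835 CPM in the male and female endothelial pools, 589.7 and 258 in mesenchymal cells, 259.6 and 190.0 in immune cells, and 39.4 and 15.3 in epithelial cells. Endothelial pools were the highest and epithelial pools the lowest, while the female mesenchymal pool lay between the immune pools. Endothelial cells were higher (log2 fold change 2.30 ± 0.46, edgeR adjusted p = 0.022). This call was lost without either endothelial pool, while the log2 fold change was 2.02 to 2.63 over the 8 fits that left out 1 pool. Epithelial cells were lower (-3.95 ± 0.66, edgeR adjusted p = 0.0069), in all 8 of these fits. At least 1 count was found in 84.3% of mesenchymal, 88.2% of endothelial, 84.0% of immune and 41.3% of epithelial cells, and at least 20 counts in 50.1%, 58.2%, 41.6% and 6.30%.

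*Tgfbr3*, the betaglycan gene, split the classes into 2 pairs. It stood at 215 and 227 CPM in the male and female mesenchymal pools and 191 and 176 in endothelial cells, but at 0.794 and 2.73 in immune cells and 1.75 and 3.91 in epithelial cells. The mesenchymal and endothelial pools did not overlap with the immune and epithelial ones. The log2 fold changes were 4.57 ± 0.46 for mesenchymal (edgeR adjusted p = 0.00084), 4.09 ± 0.46 for endothelial (0.0023), -4.64 ± 0.67 for immune (0.0036) and -4.03 ± 0.66 for epithelial cells (0.0063). The first 3 held in all 8 fits that left out 1 pool and the epithelial one in 7. Among immune cells, those annotated Cont stood at 5.13 and 74.2 CPM in the male and female pool, against 0.970 and 0.351 CPM in Kupffer cells.

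Among the LTBP genes, *Ltbp1* encodes the form that binds all 3 latent ligands. It was counted at 397 and 303 CPM in the male and female mesenchymal pools, 15.6 and 24.2 in endothelial cells, 2.15 and 1.86 in immune cells, and 1.48 and 0.313 in epithelial cells. The 4 classes did not overlap and kept this order. The log2 fold change of mesenchymal cells was 6.71 ± 0.49 (edgeR adjusted p = 3.0e-04), that of immune cells -3.18 ± 0.62 (0.013) and that of epithelial cells -4.58 ± 0.69 (0.0045), while the endothelial value was 1.05 ± 0.48 (0.24). The immune call was lost without either immune pool, and the other calls held in all 8 fits.

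*Ltbp2* had the largest mesenchymal fold difference of the members. Its level was 195 and 228 CPM in the male and female mesenchymal pools and between 0.162 and 2.81 CPM in the other 6 pools. The log2 fold change was 7.80 ± 1.04 (edgeR adjusted p = 0.0025), and it held in all 8 fits that left out 1 pool. A count was found in 51.2% of mesenchymal cells and in 3.80%, 5.53% and 7.81% of endothelial, immune and epithelial cells, but 20 counts or more were found in 1, 2 and 0 cells of these 3 classes.

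*Ltbp3*, which binds all 3 latent ligands in cultured cells, stood at 155 and 212 CPM in the male and female mesenchymal pools, 41.3 and 227 in epithelial cells, 16.5 and 14.3 in endothelial cells, and 6.26 and 9.36 in immune cells. The female epithelial pool, 37 of whose 39 cells were cholangiocytes, was above both mesenchymal pools, and the male one was below them. Mesenchymal cells (log2 fold change 2.91 ± 0.50, edgeR adjusted p = 0.0078) and epithelial cells (2.13 ± 0.51, 0.030) were higher, and immune cells were lower (-3.08 ± 0.68, 0.021). The mesenchymal call held in all 8 fits that left out 1 pool, the epithelial one in 2, and the immune one was lost without either immune pool. Without the female epithelial pool the epithelial log2 fold change was 0.61 (adjusted p = 0.47).

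*Ltbp4*, an LTBP that takes part in elastic fibre assembly, was the member with most reads, 828983 in all, and was counted in 83.4% of all cells. It stood at 1706 and 1134 CPM in the male and female mesenchymal pools, 1068 and 1260.2 in endothelial cells, 21.7 and 24.6 in immune cells, and 19.9 and 105 in epithelial cells. The mesenchymal and endothelial pools overlapped with each other and with no other pool. The log2 fold change was 3.67 ± 0.48 for mesenchymal cells (edgeR adjusted p = 0.0024), 3.13 ± 0.48 for endothelial cells (0.0078), -4.22 ± 0.70 for immune cells (0.0066) and -2.58 ± 0.63 for epithelial cells (0.033). The first 3 held in all 8 fits that left out 1 pool and the epithelial one in 5, and the epithelial call was lost when the Cont cells were left out of the immune sums (-2.18, adjusted p = 0.090). Cont cells carried *Ltbp4* at 429.9 and 605 CPM, against 12.1 and 5.25 CPM in Kupffer cells.

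Between the sexes, no member was called in a fit with class as a term, where 0.0246% of 20338 genes were. By that fit 5 genes were called and 1629 had an unadjusted p under 0.05, among them 1 member, *Ltbp2* (female higher by a log2 fold change of 2.41 ± 0.66, edgeR adjusted p = 0.59). DESeq2 called *Ltbp2* (2.48, adjusted p = 0.017). Among mesenchymal cells, which held most counts of *Ltbp2*, female and male pools were close (228 and 195 CPM). The larger ratios between the sexes lay in classes with very few counts. Female and male values there were 1.64 and 0.162 CPM (endothelial), 1.36 and 0.162 (immune), and 2.81 and 0.337 (epithelial). In these 3 classes, 1, 2 and 0 cells reached 20 counts. *Tgfb1* was lower in the female pool of 3 classes and higher in epithelial cells, with a fitted value of -1.51 ± 0.92 (adjusted p = 0.68). The pools hold different clusters, so sex and cluster makeup cannot be told apart in these values.

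Levels of different genes were compared per kilobase of merged exon. On this scale *Tgfb3* made up 81.0% and *Tgfb2* 18.5% of ligand transcript in mesenchymal cells, *Tgfb2* 71.2% and *Tgfb1* 21.3% in endothelial cells, and *Tgfb1* 64.0% in immune cells. By mean transcript length the mesenchymal shares were 57.1% and 41.5%, and endothelial *Tgfb1* made up 36.5% in the male and 6.36% in the female pool. In epithelial cells *Tgfb3* made up 58.1% and *Tgfb2* 41.9%, an order that turned when the mean length of a gene's transcripts was used (30.5% and 69.5%). With both pools summed, *Tgfbr2* had the largest share of receptor transcript, with 57.0% for mesenchymal cells, 73.0% for endothelial cells, 68.3% for immune cells and 81.0% for epithelial cells. This did not hold in 2 female pools, where *Tgfbr3* (47.8%) was ahead of *Tgfbr2* (43.6%) in mesenchymal cells and *Tgfbr1* (57.9%) ahead of *Tgfbr2* (31.9%) in epithelial cells. *Ltbp4* made up 74.8%, 98.0% and 75.2% of LTBP transcript in mesenchymal, endothelial and immune cells, and *Ltbp3* 58.8% in epithelial cells. The immune share leaned on i4 (48 cells), which holds cycling and Cont cells. *Ltbp4* was at 269 CPM there, against 3.35 to 14.2 CPM in the other immune clusters. In i7, the largest of them, *Ltbp3* (60.6%) was ahead of *Ltbp4* (29.5%), and in i3 *Ltbp2* (33.2%) was ahead of *Ltbp4* (28.5%). The summed ligand level was 86.6 CPM per kilobase in mesenchymal cells, 23.5 in epithelial, 15.1 in endothelial and 4.64 in immune cells. The summed LTBP level was 312, 9.99, 180.4 and 4.85 CPM per kilobase in the same order. By mean transcript length the endothelial ligand sum (48.2) was above the epithelial one (44.9). The epithelial sums per merged exon length differed by pool, with ligands at 20.7 CPM per kilobase in the male and 64.6 in the female pool and LTBPs at 7.80 and 41.6.

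**Figure D2:**
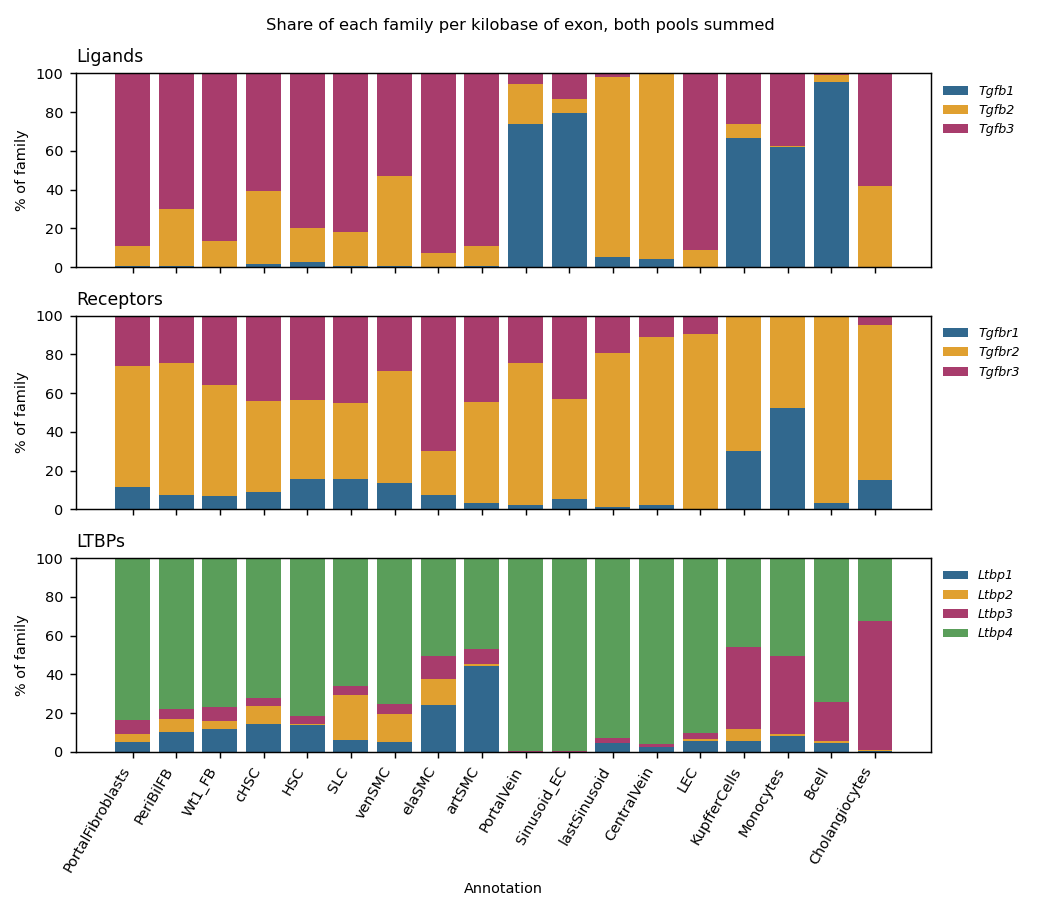
Share of each ligand, receptor and LTBP gene in its family (percent of summed CPM per kilobase of merged exon, both pools together) by the authors' annotation. *Tgfb1* fills most of the ligand bar in Sinusoid_EC (79.7%) and *Tgfb2* in CentralVein (95.7%) and lastSinusoid cells (93.2%), while *Tgfb3* fills it in LEC (91.2%) and in most mesenchymal populations. In the female cells of the sinusoidal cluster e8, *Tgfb3* (23.6 CPM) was above *Tgfb1* (11.3 CPM), by a value from plates with fewer than 5 of its cells.

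In single cells, a ligand and an LTBP were both counted in 1023 of 1337 mesenchymal cells (76.5%), 48.6% of endothelial, 32.5% of epithelial and 29.8% of immune cells. Both *Tgfbr1* and *Tgfbr2* were counted in 46.9% of immune, 40.6% of mesenchymal, 23.3% of endothelial and 9.57% of epithelial cells. Every mesenchymal cell held a count of at least 1 member, whereas 50 of 397 epithelial cells (12.6%) held none. These shares follow depth, and a single count can be stray transcript. *Ltbp1* was counted in 20.9% of epithelial cells although it stood at 1.48 and 0.313 CPM there, and none of those cells reached 20 counts, the limit for detection in the study's methods.

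Within the classes, the authors' clusters were compared by summing counts per cluster and pool. The clusters were made from the same transcriptomes, so differences between them are partly built in. Summed over both pools, 7 populations led the 10 members among the 33 with at least 10 cells, and i2, m3c (capsular HSC, annotated cHSC) and m15c each led a pair. *Tgfb1* was highest in i2 (myeloid cells, most of them annotated Monocytes, 36.0 CPM), next to the sinusoidal clusters e8 (35.4) and e3 (32.5). In male cells alone the order turned, with 85.5 CPM in e8 and 36.5 CPM in i2. *Tgfb2* peaked in m9c (venous smooth muscle cells, 418 CPM) and *Tgfb3* in m11c (Wt1 fibroblasts, 384). *Tgfbr1* was highest in i2 (141), *Tgfbr2* in e4 (lymphatic endothelium, 2032) and *Tgfbr3* in m15c (annotated elaSMC, 472). *Ltbp2* peaked in m5c (second layer cells, SLC, 1014), *Ltbp3* in m15c (349), and *Ltbp1* and *Ltbp4* reached 850.1 and 2563 CPM in m3c. Among sums of at least 5 cells, the leads of *Tgfb2* in m9c and *Tgfbr2* in e4 held in both pools, and the other 8 leads did not. *Ltbp1* was higher in m15c than in m3c in each pool (1078 against 926 CPM in male and 739 against 612 CPM in female cells). *Ltbp4* was highest in e4 in male cells (2775 CPM) and in e5 in female cells (2639 CPM). The leading values of *Tgfb1* and *Tgfbr1* rested on male cells almost alone, since i2 had 63 male and 2 female cells.

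**Figure D3:**
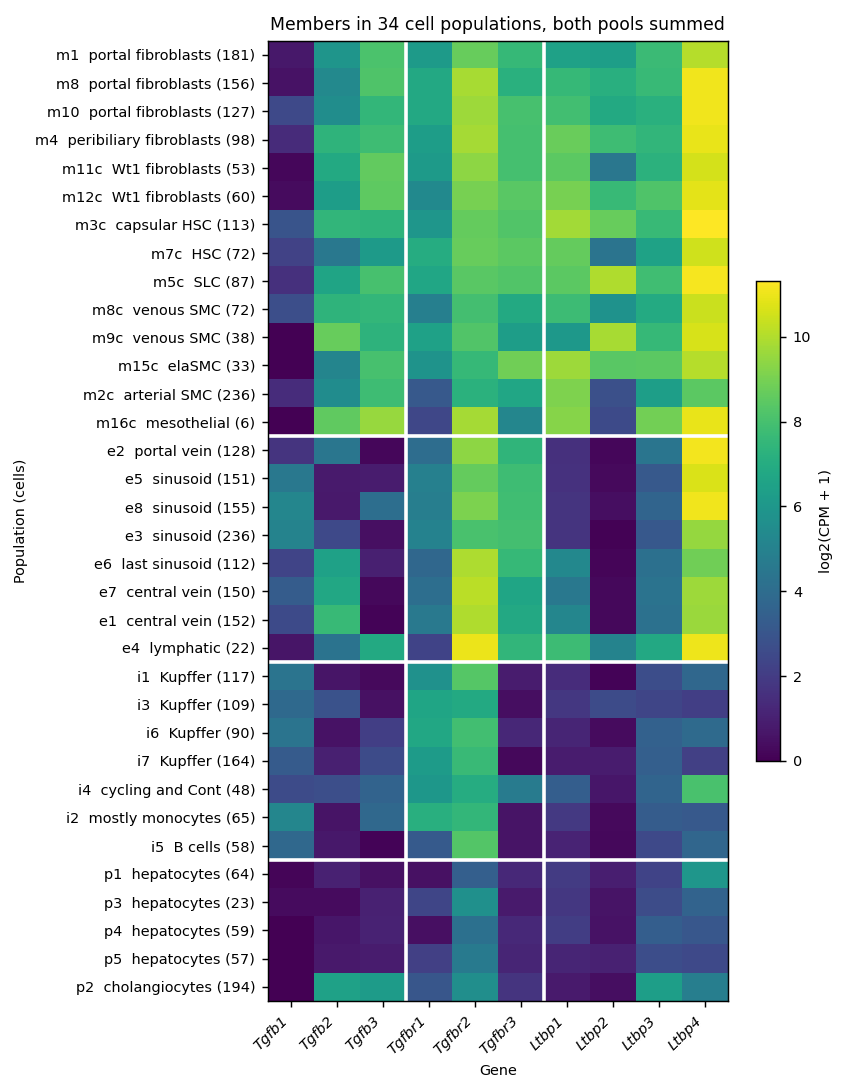
Heat map of log2(CPM + 1) for the 10 members (columns) in 34 populations (rows, number of cells in parentheses), both pools summed, with white lines between classes and between ligands, receptors and LTBPs. *Ltbp4* is bright throughout the mesenchymal and endothelial rows and *Tgfb1* is dark in nearly all rows, at 20 CPM or more in only 4 of the 33 populations with at least 10 cells.

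In the endothelium, *Tgfb2* was higher in the central vein cluster e1, whereas no difference of *Tgfb1* between clusters passed the test. The clusters run from the portal vein (e2) through the sinusoids (e5, e8, e3 and, annotated lastSinusoid, e6) to the central vein (e7 and e1), with lymphatic cells in e4. *Tgfb1* stood at 2.29 and 2.26 CPM in the male and female cells of e2, 25.9 and 0.229 in e5, 85.5 and 11.3 in e8, 32.8 and 21.5 in e3, 9.06 and 1.80 in e6, 21.2 and 0 in e7, and 8.08 and 0.805 in e1. Both pools had their highest values in e8 or e3, the female value of e3 came from 6 cells, and male values were higher in every cluster, by a small margin in e2 and e4. A count of *Tgfb1* was found in 64.4% of the cells of e3 (57.9 to 70.5%), 27.7% in e8 (20.9 to 35.5%) and 8.59% in e2 (4.37 to 14.9%).

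*Tgfb2* was at 227 and 153 CPM in the male and female cells of e1, 117 and 106 in e7, and 154 and 57.0 in e6. In the other sinusoidal clusters e3, e5 and e8 it lay between 0.383 and 4.71 CPM in both pools. In the sums per pool, e1, e6 and e7 thus lay above e3, e5 and e8. Over plates e1 (7.87 to 260.0 CPM) and e6 (53.2 to 175 CPM) lay above e3, e5 and e8 (at most 5.49 CPM), while e7 ranged from 0 to 225 CPM and overlapped with them. In e2 it was at 44.4 and 1.37 CPM, of which the 114 cells annotated PortalVein gave 0.686 and 0.987 CPM. The 14 cells annotated PBV gave 459 CPM in the 5 male cells and 3.56 CPM in the 9 female ones, the male value coming from 2 cells. A count of *Tgfb2* was present in 56.6% of the cells of e1 (48.3 to 64.6%) and 9.75% of those of e3 (6.28 to 14.3%).

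Against the mean of all other endothelial clusters, *Tgfb2* was higher in e1 (log2 fold change 4.34 ± 0.90, edgeR adjusted p = 0.021), in both pools (4.49 in male and 4.21 in female cells, on log2(CPM + 1)). It was the only member called in e1, where 1.41% of 18321 genes were called (1.32% higher). No member was called in e2, where 1.93% of genes were. *Ltbp4* was nearest there, at 2319 and 2199 CPM in the male and female cells of e2, with an adjusted p of 0.043 but a log2 fold change of 0.98 ± 0.24, just under the limit of 1. With sums per plate its value in e2 was 1.41 (adjusted p = 0.0015).

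Whether members differed between the sinusoid and the other vessels depended on e7, which the authors annotate as CentralVein. With e7 set among the other clusters, *Tgfb2* (log2 fold change -3.90, edgeR adjusted p = 0.025), *Tgfbr2* (-1.46, 0.013) and *Ltbp1* (-2.68, 0.018) were called lower in the sinusoid, where 2.72% of all genes were called (1.33% lower). With e7 counted as sinusoidal, as the comparison was set up here, edgeR's main fit called no member and 1.92% of all genes, and DESeq2 called 4 members. Some other edgeR settings also called members, among them *Tgfbr2* with the pool as a block in the fit. The values of the main fit were 3.13 ± 1.33 for *Tgfb1* (edgeR adjusted p = 0.32), -2.39 ± 0.80 for *Tgfb2* (0.17), -1.02 ± 0.29 for *Tgfbr2* (0.095) and -2.07 ± 0.54 for *Ltbp1* (0.063), and 5 members had an unadjusted p under 0.05.

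*Tgfbr2* was at 951 and 1109.8 CPM in the male and female cells of e1, 1399.8 and 954 in e7, 1311 and 836 in e6, 936 and 360.0 in e8, 412 and 303 in e5, 274 and 45.6 in e3, and 527 and 786 in e2. *Ltbp1* followed the same side of the lobule, at 36.1 and 34.7 CPM in e1, 34.4 and 13.8 in e7, 50.8 and 32.7 in e6, and 1.07 to 2.92 CPM in e2, e3, e5 and e8. The values of *Ltbp1* in e1, e6 and e7 were above those of the other 4 blood vessel clusters in both pools. Over plates they overlapped, with *Ltbp1* at 0 to 101 CPM in e1, 0.372 to 144 in e6 and 0 to 417 in e7, against 1.39 to 4.66 CPM in e8. *Ltbp4* was lowest in e6, at 539 and 436 CPM, and reached 2525 and 2007 CPM in e8 and 1463 and 2639 in e5. In 5 plates of e6, *Ltbp4* ranged from 159 to 663 CPM, and in 5 plates of e8 from 1910.0 to 3926 CPM.

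**Figure D4:**
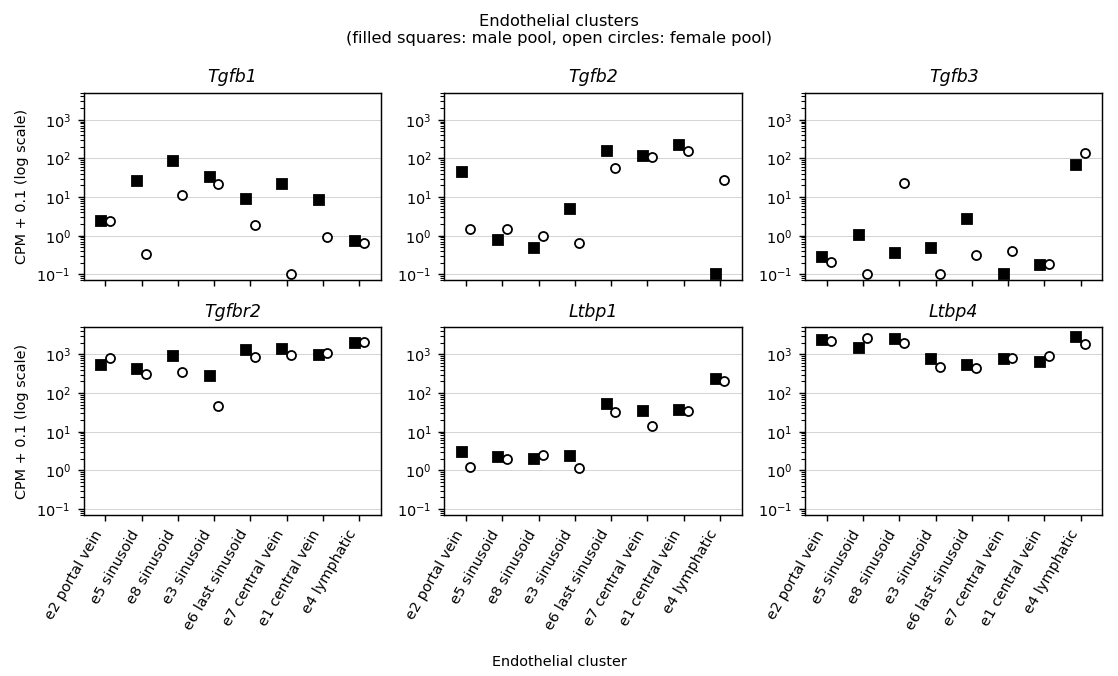
*Tgfb1*, *Tgfb2*, *Tgfb3*, *Tgfbr2*, *Ltbp1* and *Ltbp4* (CPM + 0.1, log scale) in the 8 endothelial clusters, ordered from portal vein to central vein with lymphatic cells last. *Tgfb2* and *Ltbp1* are high in e6, e7 and e1 in both pools, *Tgfb3* is high only in e4 apart from the female cells of e8 (23.6 CPM), and *Tgfb1* is scattered between pools. In the 5 plates with at least 5 cells of e8, *Tgfb3* was at most 1.53 CPM.

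The 22 lymphatic cells of e4 (9 male and 13 female), whose 4 lymphatic markers summed to 5812 CPM, had 6 of 10 members called, more than in any other comparison of clusters, all higher than in the other endothelial clusters, where 6.8% of genes were called (4.92% higher). *Tgfb3* was at 65.5 and 139.6 CPM in male and female cells of e4 and at most 23.6 CPM in any other endothelial cluster and pool (log2 fold change 7.74 ± 1.15, edgeR adjusted p = 0.00065). *Ltbp1* was at 234 and 204 CPM in e4, above the sums of every other endothelial cluster in either pool (5.07 ± 0.61, adjusted p = 9.0e-05). *Tgfbr2* was at 1993 and 2049 CPM, also above the sums of the other clusters in either pool (1.74 ± 0.38, adjusted p = 0.0094), and *Ltbp4* at 2775 and 1815 CPM (1.07 ± 0.23, 0.0098), a male value close to the 2639 CPM of female e5 and a female value below those of e2, e5 and e8. Single plates of e7 reached 417 CPM of *Ltbp1* and 3568 CPM of *Tgfbr2*, above the sums of e4. The calls of 2 other LTBP genes rested on 1 pool. *Ltbp2* was at 0.624 CPM in the male cells and 46.3 CPM in the female cells, where 1 cell had 20 counts or more (7.02 ± 1.20, adjusted p = 0.0017), and *Ltbp3* at 312 CPM in the male cells and 22.3 CPM in the female cells (3.44 ± 0.89, 0.026). With sums of at least 10 cells, which leaves 1 sum of e4 (its female cells) with no replicate, *Ltbp3* (0.70, adjusted p = 0.95) and *Ltbp4* (0.67, 0.20) were not called. The median log2 fold change of all genes in this comparison was -0.424, and 0.008 with another normalization (RLE), under which the same 6 members were called. With sums per plate e4 had 1 sum, so that fit holds no replicate check of its calls.

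In the mesenchyme, *Tgfb3* lay between 101 and 394 CPM in both pools of every mesenchymal population with at least 10 cells except m7c (HSC), at 75.6 CPM in its 68 male cells and 11.7 CPM in its 4 female ones. *Tgfb2* was at 475 and 336 CPM in male and female cells of m9c and 209 and 56.4 in m3c, but 24.3 and 0.839 in m7c and 58.2 and 35.6 in m2c (arterial smooth muscle). m9c was the highest of the populations with at least 10 cells in both pools. In the 6 cells annotated Mesothelial, *Tgfb2* was at 372 and *Tgfb3* at 753 CPM, too few for a comparison. *Tgfb1* was at 23.3 CPM or less in every mesenchymal population and pool.

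Fibroblasts (m1, m4, m8, m10, m11c and m12c) were higher than mural cells (m2c, m8c, m9c and m15c) in 2 members, where 3.87% of 21340 genes were called (2.58% higher). *Tgfbr2* lay between 406 and 950.2 CPM in the fibroblast populations and between 86.3 and 455 CPM in the mural ones over both pools (log2 fold change 1.79 ± 0.37, edgeR adjusted p = 0.0046), with within-pool differences of 1.67 and 1.95. Its call was lost with sums per plate (1.53, adjusted p = 0.28). *Ltbp4* was called at the limit of fold (1.0 ± 0.18, edgeR adjusted p = 0.0012). This call was lost with the pool as a block in the fit and with sums per plate.

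For the stellate populations m3c and m7c against fibroblasts, edgeR's main fit called no member and 1.27% of genes. The 4 stellate markers summed to 2196 CPM in the cells annotated cHSC and 6425 CPM in those annotated HSC. *Ltbp1* was nearest above (1.14 ± 0.39, edgeR adjusted p = 0.24) and *Tgfb3* nearest below (-1.38 ± 0.45, 0.20), the only 2 members with an unadjusted p under 0.05. DESeq2 called *Tgfb3* (-1.40, adjusted p = 0.021), and edgeR with the pool as a block in the fit called *Ltbp1*. Against mural cells, where 2.27% of genes were called (1.71% higher), *Ltbp4* was higher in stellate cells (1.13 ± 0.24, edgeR adjusted p = 0.012), with within-pool differences of 1.0 and 1.52. This call was lost with sums per plate (0.94, adjusted p = 0.15) and when the 4 female cells of m7c were added (0.81, 0.15). *Tgfbr3* stood at 1.38 ± 0.38 (edgeR adjusted p = 0.059) and was called by edgeR with the pool as a block.

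The 2 stellate populations differed most in *Ltbp2*. It was at 446 and 301 CPM in 91 male and 22 female cells of m3c and at 20.6 and 9.22 CPM in 68 male and 4 female cells of m7c. In 7 plates of m3c it ranged from 246 to 1075 CPM and in 5 plates of m7c from 0 to 34.8 CPM, with no overlap. The fit over pools gave -4.09 ± 1.29 for m7c against m3c with no call by edgeR (adjusted p of 1 after rounding), where 0.0234% of genes were called and m7c had a single sum. In that fit and in DESeq2, which called it (-4.15, adjusted p = 0.039), the spread of m7c is taken from other populations. EdgeR on sums per plate also called it (-6.08, adjusted p = 0.017). A count of *Ltbp2* was found in 61.1% of the cells of m3c (51.4 to 70.1%) and 30.6% of those of m7c (20.2 to 42.5%), and 20 counts or more in 34.5% and 2.78%.

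*Ltbp2* also divided the other mesenchymal populations. It was at 812 and 1416 CPM in the male and female cells of m5c and 939 and 862 in m9c, but 63.7 and 10.5 in m8c, 1.31 and 8.67 in m2c, and 24.5 and 3.48 in m11c. The values of m5c and m9c were above those of all other populations in both pools. In arterial smooth muscle cells (m2c), where 1.64% of genes were called against the other mural populations (0.722% lower), *Ltbp2* was lower (-5.53 ± 0.98, edgeR adjusted p = 0.0030), with within-pool differences of -6.94 and -3.96, and *Ltbp4* was lower (-1.67 ± 0.34, 0.0088). *Ltbp4* stood at 388 and 333 CPM in m2c, below every other mesenchymal population in both pools, although the 4 female cells of m7c were close at 339 CPM. *Ltbp1* was at 717 and 449 CPM in m2c against 88.9 and 31.0 in m9c and 255 and 67.3 in m8c. Its value was 1.58 ± 0.45 (edgeR adjusted p = 0.083), and edgeR called it with the pool as a block in the fit. In m15c, however, *Ltbp1* was higher still, at 1078 CPM in its 7 male cells and 739 CPM in its 26 female ones.

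In peribiliary fibroblasts (m4), no member was called against the other fibroblasts, where 0.0469% of genes were. *Ltbp2* stood at 153 CPM in its 89 male cells and 762 CPM in its 9 female ones (2.37 ± 0.61, edgeR adjusted p = 0.19). *Tgfbr2* was at 950.2 CPM in the male cells of m4, above the other fibroblasts of that pool, and at 513 CPM in the female cells, below the 782 CPM of m11c. *Ltbp4*, at 2040.5 and 1549 CPM in m4, lay within the range of the other fibroblasts in both pools. *Ltbp3* lay between 71.7 and 389 CPM in every mesenchymal population and pool except m7c (23.5 CPM in female cells), m8c (70.3 CPM in female cells) and the mesothelial cells.

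**Figure D5:**
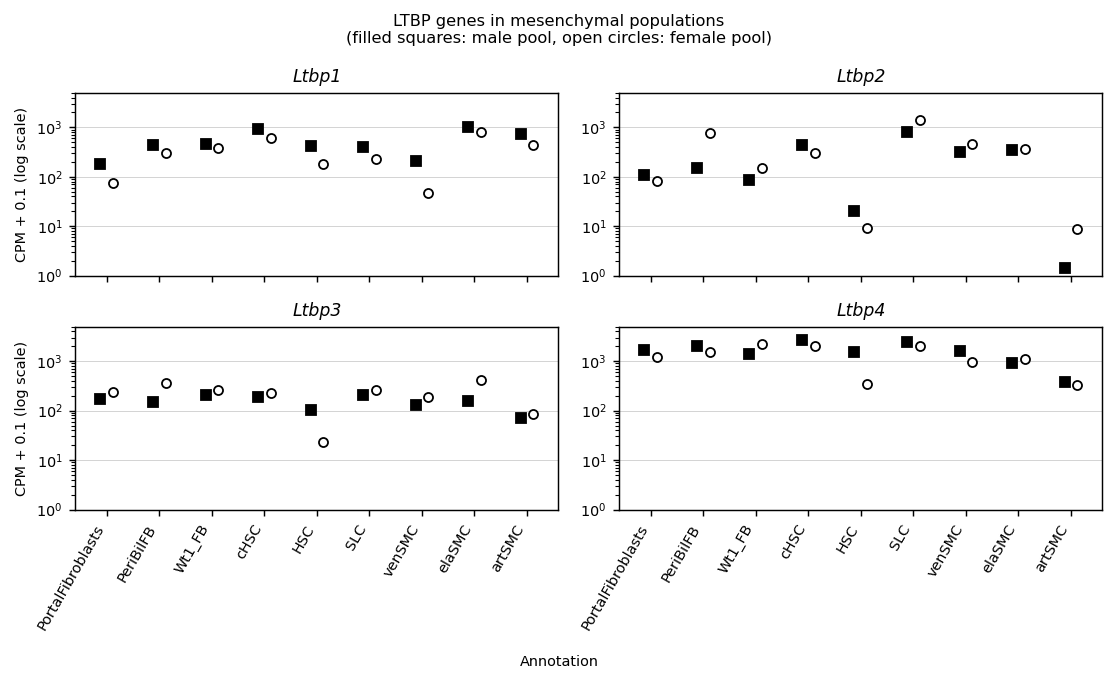
*Ltbp1* to *Ltbp4* (CPM + 0.1, log scale) in 9 mesenchymal annotations, with filled squares for the male and open circles for the female pool. *Ltbp2* spans from 1.31 CPM in male artSMC to 1416 CPM in female SLC, while *Ltbp3* and *Ltbp4* vary less.

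In immune cells, *Tgfb1* was at 20.4 and 0.653 CPM in male and female cells of i1, 10.9 and 13.7 in i3, and 36.5 CPM in the male cells of i2. The 58 B cells of i5, all male, stood at 13.1 CPM, with 419 CPM in 1 of 3 plates and 2.44 and 2.66 CPM in the others. *Tgfbr1* was at 141 CPM in male cells of i2 and 8.24 CPM in i5, against 50.0 and 75.1 CPM in i1, 138 and 95.4 in i3 and 112 in the female cells of i6. A count of *Tgfbr1* was present in 58.5% of the cells of i2 (45.6 to 70.6%) and 13.8% of those of i5 (6.15 to 25.4%). *Tgfbr2* was at 313 CPM in i5 and 167 CPM in the male cells of i2. Kupffer cell clusters, among them i4 with its Cont cells, did not differ from i2 or from i5 in any member. No member had an unadjusted p under 0.05 in either, where edgeR called 2.87% and 4.78% of genes and DESeq2 called no member. Only male sums of i2 and i5 entered, and the standard errors of the members were 1.09 or more on the log2 scale.

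In epithelial cells, *Tgfb2*, *Tgfb3* and *Ltbp3* were counted mostly in cholangiocytes (p2). In p2, *Tgfb2* was at 78.7 CPM in the 157 male cells and 188 CPM in the 37 female cells, and it was at 0.262 to 0.969 CPM in the male cells of the hepatocyte clusters p1, p3, p4 and p5. *Tgfb3* was at 67.9 and 114 CPM in p2 against 0.431 to 1.14 CPM, and *Ltbp3* at 63.6 and 231 CPM in p2 against 3.12 to 9.41 CPM. The sums per pool did not overlap for these 3 genes, although at least 1 of 6 plates of p2 was at 0 for each, and all 3 were called higher in p2, with log2 fold changes of 7.0 ± 0.89 (edgeR adjusted p = 2.2e-06), 5.99 ± 0.91 (1.9e-05) and 3.94 ± 0.76 (0.00027). In this comparison 37.3% of 16694 genes were called (28.6% higher) and the median log2 fold change of all genes was 1.38, beside which 3 of 9 members tested is not a result about the members. With sums per plate only *Tgfb2* was called. A count of *Tgfb2* was present in 41.2% of the cells of p2 (34.2 to 48.5%), with 20 counts or more in 18.6%. *Tgfb1* was not tested, with 2 counts in 203 hepatocytes and 1 count in 194 cholangiocytes. *Tgfbr2*, at 51.6 and 14.3 CPM in p2 and 8.83 to 50.0 CPM in the male hepatocyte clusters, did not differ by the test (-0.05 ± 0.82, adjusted p = 0.99).

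The other genes of the pathway were taken from 5 lists. In mesenchymal cells all 12 matrix partners of the latent complex were called higher (9.47% of all genes were). Among them were *Fbn2* (log2 fold change 9.78, edgeR adjusted p = 0.00064), a fibrillin, and *Fmod* (9.38, 0.00041), a proteoglycan that binds TGF-β. *Dcn* of this list is also among the mesenchymal markers summed above, so the count is partly built in. The median of this list was 5.82 against 0.018 for all genes. In endothelial cells 4 matrix partners were higher and 2 lower (5.33% and 2.96% of all genes), with *Fbn1*, the main fibrillin of the adult, at 2.79 (adjusted p = 0.024). In immune cells 8 of the 12 were lower and none higher, and in epithelial cells 5 were lower and 1 higher, against 5.25% of all genes lower in immune and 4.05% lower and 8.37% higher in epithelial cells.

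Of 14 anchors and activators of the latent complex, 6 were higher and 1 lower in mesenchymal cells, where 9.47% of all genes were higher and 2.33% lower. *Lrrc32*, which encodes the cell surface anchor GARP, was at 512 and 594 CPM in the male and female mesenchymal pools, 387 and 451 in endothelial cells, and 10.4 CPM or less in the other pools. *Nrros*, which encodes a related anchor of myeloid cells, was at 263 and 559 CPM in immune cells, 118 and 97.4 in endothelial cells, and 2.27 and 2.53 in mesenchymal cells. In endothelial cells 2 of the 14 were higher and 1 lower, in immune cells 2 higher and 4 lower, and in epithelial cells 3 higher and 3 lower, against 5.33% of all genes higher and 2.96% lower, 7.92% and 5.25%, and 8.37% and 4.05%. *Lrrc32* was called higher in mesenchymal (4.42, edgeR adjusted p = 0.00016) and endothelial cells (3.77, 0.00052), and *Nrros* in endothelial (2.73, 0.0034) and immune cells (5.50, 0.00018). *Itgb6* and *Itgb8*, which encode the integrin chains best known for activating latent TGF-β, were higher in epithelial cells (7.33, adjusted p = 0.00088, and 5.87, 0.00095), and *Itgb8* was also higher in mesenchymal cells (4.16, 0.0033) and lower in immune cells (-7.75, 0.0026). Other integrin chains of the list were lower, *Itgb3* in epithelial (-4.32, adjusted p = 0.014) and *Itgb5* in endothelial cells (-6.00, 0.0018), while *Itgb5* was higher in immune cells (3.20, 0.0014). *Lrrc32* (-4.96, 0.00041) and *Nrros* (-3.76, 0.0022) were the other 2 lower in epithelial cells. In cholangiocytes against hepatocytes 8 of the 14 were higher and 1 lower, where 28.6% of all genes were called higher and 8.67% lower, with *Itgb6* at 12.24 and *Itgb8* at 10.16 (adjusted p = 4.1e-06 and 2.7e-06).

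Of 7 co-receptors and modulators, 4 were higher in mesenchymal cells (9.47% of all genes), led by *Cd109* (5.81, edgeR adjusted p = 0.0099) and *Vasn* (5.32, 0.00027), which encode membrane proteins that bind TGF-β. *Cd109* was low throughout, at 2.78 and 8.87 CPM in male and female mesenchymal and 2.03 and 0.326 in endothelial cells. *Vasn* was also at 115 and 272 CPM in epithelial cells. In endothelial cells 2 of the 7 were higher and 1 lower (5.33% and 2.96% of all genes), in immune cells 1 and 4 (7.92% and 5.25%), and in epithelial cells 1 and 3 (8.37% and 4.05%). *Eng*, the endoglin gene, was higher in endothelial (4.18, adjusted p = 0.00096) and mesenchymal cells (2.01, 0.0095) and lower in immune (-2.39, 0.012) and epithelial cells (-3.79, 0.0026). Of 12 Smads and their regulators, 1 was higher in mesenchymal cells (*Pmepa1*, 2.94, adjusted p = 0.011) and 1 in endothelial cells (*Smad6*, an inhibitory Smad, 2.77, 0.011), against 9.47% and 5.33% of all genes. *Smad6* was lower in epithelial cells (-3.03, adjusted p = 0.017), and *Smad3* was higher in epithelial (1.90, 0.030) and lower in immune cells (-2.40, 0.030), where 4.05%, 8.37% and 5.25% of all genes were called in those directions. In cholangiocytes 6 of the 12 were higher than in hepatocytes (28.6% of all genes, with a list median of 2.12 against 1.38), led by the inhibitory *Smad7* (5.21, adjusted p = 0.00028). Of 8 genes known to respond to TGF-β, 5 were higher in mesenchymal cells (again beside 9.47% of all genes), led by *Col1a1* (8.79, edgeR adjusted p = 0.00041), and none was lower. *Col1a1* is also among the mesenchymal markers summed above. Endothelial cells had 1 of the 8 higher and 1 lower (5.33% and 2.96% of all genes), immune cells 1 and 2 (7.92% and 5.25%), and epithelial cells 2 lower (4.05%).

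Within the endothelium, in lymphatic cells 5 of 11 matrix partners were higher and 1 lower (4.92% and 1.88% of all genes), with *Fbln5*, an elastic fibre gene, at 6.47 (edgeR adjusted p = 1.3e-07). Of the 11, the 2 called in e2 and the 2 called in e1 were *Fbln5* and *Eln*, the elastin gene (1.93% and 1.41% of all genes were called). They were higher in e2 (4.17, adjusted p = 7.2e-05, and 3.84, 0.0046) and in e1 (4.79, 8.6e-06, and 5.03, 0.00052), and lower in the sinusoidal group (-7.20, 3.7e-07, and -5.70, 0.00011), where *Emilin1*, which encodes an elastic fibre glycoprotein, was higher (1.66, 0.045) and 1.92% of all genes were called. No Smad or Smad regulator was called in e1, e2 or the sinusoidal group, and *Smad6* was lower in e4 (-3.53, adjusted p = 0.033). In the mesenchyme, fibroblasts were higher than mural cells in 6 of 12 matrix partners (2.58% of all genes) and arterial smooth muscle cells lower than other mural cells in 3 (0.722% of all genes).

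Across the 33 populations, levels of the members were set against 14782 genes that reached 20 CPM somewhere, on log2(CPM + 1), as a description, since the points share pools, plates and class. The gene most like *Tgfbr3* was another member, *Ltbp4* (Pearson's r = 0.968), and the reverse also held. *Tgfb3* was most like *Gm37804* (0.971), which overlaps its exons on the opposite strand, followed by *Fstl3* (0.942). The genes most like *Tgfb2* were *Rbms3* (0.922) and *Bmp4* (0.904), those most like *Ltbp1* were *Fkbp10* (0.925) and *Col6a3* (0.924), and that most like *Ltbp2* was *Cpz* (0.944). *Tgfb1* was like no other member, with *Tgfbr1* nearest at 0.366, and its most like gene was *Abcg1* (0.841). For *Tgfbr1* this was *Slc29a3* (0.881), for *Tgfbr2* *Klc1* (0.867), and for *Ltbp3* again *Gm37804* (0.949).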

How the data were processed

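Single cells were sorted into plates, and polyA RNA was sequenced by Smart-seq2. The authors deposited whole-number read counts per gene and cell, with cluster and annotation tables, after removing cells of low quality, putative doublets and cells with mixed transcriptomes. Their processing notes name Bowtie, Bowtie2, Subread, featureCounts, Seurat and the builds GRCm38 and mm10, and clusters were made with pagoda2. Reads counted on ERCC spike-ins (92 rows, 1.946% of counts) were left out. Whether strand was used in counting is not given in the sources used here.

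Counts were summed per pool for classes and per cluster and pool, with at least 5 cells a sum, for clusters. The sums were tested with edgeR 4.0.16 in R 4.3.3 (quasi-likelihood test, TMM, filterByExpr), with Benjamini-Hochberg adjustment over all genes tested, 2-sided. Genes with an adjusted p below 0.05 whose log2 fold change was 1 or more in size were called. CPM are counts of a gene per 1000000 counts, and log2 levels within pools used a pseudocount of 1 CPM. Alternatives were DESeq2 1.42.0, RLE factors, no filter, cells thinned to 50000 counts (13 shallower cells kept at their own depth), sex as a term, leaving out each pool, the pool as a block, other minimum cell numbers, sums per plate and e7 outside the sinusoidal group. The script was run on simulated counts with known changes and a common dispersion. Those counts lack the differences in plates and clusters between pools, so that run checked the code and not the calls given here. Cells are not replicates, and no test was run over cells.

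The text names every member, up to 5 called genes per pathway list and comparison with the largest fold change, and, for likeness, genes among the 3 with the highest Pearson correlation. The members were picked by name and not by a measured value, but this gene set and the lists were chosen with earlier results of these data known. Gene lengths came from GENCODE models on GRCm38, and promoter sequences from RefSeq (GRCm38.p6). Intervals are exact binomial at 95% over the cells of both pools and cover counting error only, not the spread between pools or plates. Calculations used Python 3.11.15, numpy 2.4.6, pandas 2.3.3 and scipy 1.17.1, and figures matplotlib 3.10.9.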

Additional observations from a re-analysis of the deposited data

How the results depend on the processing

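No member's called direction reversed under any alternative run. Over all alternatives, calls of members were kept in 380 cases and lost in 62, through the adjusted p, the fold or both. The number of members called was within 1.5 times the reported one in 127 cases and moved in 39, and the causes were not tested. With DESeq2 it was 7 in place of 3 in endothelial cells, 1 in place of 0 between the sexes, 1 in place of 2 for fibroblasts against mural cells, 1 in place of 0 for stellate cells against fibroblasts, for m7c against m3c and for e2, 2 in place of 1 for stellate against mural cells and for e1, and 4 in place of 0 for the sinusoidal group. With RLE factors it was 1 for fibroblasts against mural cells, 2 for stellate against mural cells and 2 for the sinusoidal group. With no filter on low counts it was 7 in endothelial cells, 1 for m7c against m3c, for m4 and for e2, and 2 for the sinusoidal group. In cells thinned to 50000 counts it was 5 in endothelial cells, 1 for fibroblasts against mural cells and 2 for stellate against mural cells.

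With the pool as a replicate block, 1 member was called for fibroblasts against mural cells, 1 for stellate cells against fibroblasts, 2 for stellate against mural cells and 1 for the sinusoidal group. The calls gained were *Ltbp1* for stellate cells against fibroblasts (1.07, edgeR adjusted p = 0.040) and in m2c (1.63, 0.0040), *Tgfbr3* for stellate against mural cells (1.42, 0.045) and *Tgfbr2* for the sinusoidal group (-1.13, 0.045). Those lost were *Ltbp4* for fibroblasts against mural cells (0.99, 0.0028) and *Ltbp3* in e4 (3.33, 0.10), and the block changed no other call of a member. Sums of 1 pool share a sex, and no label says that they share mice. Their deviations correlated at -0.008 to 0.172 over 10 mesenchymal, -0.020 to 0.10 over 8 endothelial and -0.014 to 0.125 over 3 immune populations, so the pool was not taken to pair them. With sums per plate the number called was 0 for fibroblasts and 0 for stellate cells against mural cells, 1 for m7c against m3c, 1 for m2c, 1 for e2, 3 for e4 (which then had 1 sum and no replicate) and 1 for p2. With at least 10 cells a sum it was 1 for fibroblasts against mural cells and 1 for the sinusoidal group, and with e7 outside the sinusoidal group it was 3. Sums of at least 4 cells, chosen after seeing the data, gave 1 for fibroblasts and 0 for stellate cells against mural cells. Leaving out the Cont cells was also chosen after seeing the data.

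Leaving out 1 pool at a time, 6 to 8 members were called in mesenchymal, 2 to 4 in endothelial, 3 to 7 in immune and 4 to 7 in epithelial cells, and 0 to 0 between the sexes. The lone pool of a class is then assumed to vary like the other classes. The immune call of *Tgfb3* was lost without either mesenchymal, immune or epithelial pool (-3.38 to -2.41 over the 8 fits). The epithelial call of *Tgfb2* was lost without the female mesenchymal, either endothelial or the female epithelial pool (1.34 to 3.04), and that of *Ltbp3* without either mesenchymal, either endothelial, the male immune or the female epithelial pool (0.61 to 2.84). That of *Ltbp4* was lost without the male mesenchymal, female endothelial or male epithelial pool (-4.04 to -1.87), and that of *Tgfbr3* without the male epithelial pool (-4.52 to -3.58). The mesenchymal call of *Tgfb2* was lost without either mesenchymal, either endothelial, the male immune or the male epithelial pool (1.57 to 2.51). Within clusters each population has 1 sum a pool, so pools were not left out and differences within each pool are given.

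Over all genes, DESeq2 called 4292 in place of 2838 in mesenchymal, 4497 in place of 1992 in endothelial, 5655 in place of 3167 in immune and 5601 in place of 2987 in epithelial cells, and 547 in place of 5 between the sexes. No filter gave 4761, 4210, 5507 and 5066 in the 4 classes. DESeq2 called 1916 in place of 825 genes for fibroblasts against mural cells, 882 in place of 270 and 1233 in place of 484 for stellate cells against fibroblasts and mural cells, 934 in place of 351 for m2c, 3073 in place of 1245 for e4 and 1446 in place of 352 for the sinusoidal group. DESeq2 also called 292 in place of 5 for m7c against m3c, 220 in place of 10 for m4 and 140 in place of 578 for i2. No filter gave 577 and 808 for stellate cells against fibroblasts and mural cells, 50 for m7c against m3c, 288 for m4, 754 for m2c, 1102 in place of 354 for e2, 998 in place of 258 for e1, 2002 for e4 and 699 for the sinusoidal group. RLE factors gave 16 for m4, and thinning gave 10 for m7c against m3c, 53 for m4 and 316 for i2. At least 10 cells a sum gave 12 for m7c against m3c, 1 for m4, 641 for the sinusoidal group and 310 for i2, and at least 4 cells 11 for m7c against m3c. The block gave 0 for m7c against m3c, 211 for e2, 796 for e4, 17 in place of 578 for i2 and 229 in place of 961 for i5, and sums per plate 1228 in place of 6225 for p2, 203 for fibroblasts against mural cells, 738 for stellate cells against fibroblasts, 64 for m7c against m3c, 40 for m4, 102 for m2c, 674 for e2, 530 for e1, 574 for e4, 228 for the sinusoidal group and 1571 for i5. Without 1 pool, 1528 to 2710 genes were called in mesenchymal, 606 to 1894 in endothelial, 1847 to 3096 in immune and 1933 to 2852 in epithelial cells, and 0 to 6 between the sexes. With 2 pools a class and 39 female epithelial cells, small differences were not detectable.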
